A study of Homo sapiens with 4 samples.

Results

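The ephrin, Eph receptor and semaphorin genes were described by where GATA3 was detected around them in differentiating human embryonic stem cells. The set was given by gene name and held 42 of the 20033 protein-coding genes of the annotation: 8 ephrins, 14 Eph receptors and 20 semaphorins. A GATA3 position counted for a gene when it lay in the gene body, up to 50 kb from its 5′ end on either side, or carried the gene's symbol in the peak list. Positions of both replicates within 100 bp of each other were joined to a shared region. By this rule 32 of the 9145 shared regions of the whole data set belonged to the guidance genes.

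Chromatin came from H1, an established line of human embryonic stem cells, given BMP4 at 50 ng/ml for 6 h, and ChIP-seq with an antibody to the transcription factor GATA3 gave the sites it occupied. The series comprised 2 GATA3 ChIP samples and 2 input chromatin samples, all from the same line, dose and time. The ChIP samples were described as biological replicates. The peak lists of both ChIP samples were analysed, with 18456 chromosomal positions in replicate 1 and 12782 in replicate 2. Signal tracks, reads and input peaks were not analysed here. No GATA3 ChIP sample without BMP4 entered the comparison, so a site present before BMP4 and a site gained after it cannot be told apart. The lists give positions alone, with no height, width or score and no RNA, so neither the identity of the cells nor the expression of the guidance genes could be checked. The study gives depth as a mean over its GATA3 libraries, and the depth of each replicate is not given in the sources used here.

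Eph receptors are receptor tyrosine kinases whose ligands, the ephrins, stay attached to the surface of the neighbouring cell. A-type ephrins are held by a lipid anchor and mostly bind EphA receptors, B-type ephrins span the membrane and mostly bind EphB receptors, and contact between the cells can signal in both directions. Semaphorins are secreted or membrane-bound cues read by plexins and, for the secreted class 3, usually by neuropilins as well. These proteins steer growing axons, sharpen tissue boundaries such as those between somites, and guide neural crest cells and blood vessels.

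The sequences under the shared regions nearest to the 5′ ends show what GATA3 was found beside, and they are printed on the plus strand of hg38 with GATA words in capitals. A GATA word is A or T, then GATA, then A or G, such as AGATAA, or its reverse complement. The number of kb is the distance of the region's centre from the 5′ end of the gene, negative for upstream. For EPHA3 the run ends at the base before the transcript starts, and for SEMA3E the bases around the word alone are shown.
EFNA3, -0.256 kb, chr1:155078521-155078641: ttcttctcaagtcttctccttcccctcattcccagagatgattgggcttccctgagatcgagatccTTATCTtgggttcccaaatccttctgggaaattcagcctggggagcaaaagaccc
EFNA4, 0.617 kb, chr1:155064294-155064414: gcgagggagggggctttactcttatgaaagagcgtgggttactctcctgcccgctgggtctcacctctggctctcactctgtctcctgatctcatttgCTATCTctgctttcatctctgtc
EFNB2, 5.18 kb, chr13:106530426-106530546: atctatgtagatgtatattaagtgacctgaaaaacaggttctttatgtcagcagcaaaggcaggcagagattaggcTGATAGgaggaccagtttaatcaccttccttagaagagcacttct
EPHA3, 0.0320 kb (stretch upstream of the start), chr3:89107561-89107620: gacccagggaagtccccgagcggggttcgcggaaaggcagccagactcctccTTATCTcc
SEMA3E, 7.76 kb, chr7:83641389-83641418: cacatgctgagcTGATAGctgcctatagga
SEMA4D, 8.07 kb, chr9:89489997-89490117: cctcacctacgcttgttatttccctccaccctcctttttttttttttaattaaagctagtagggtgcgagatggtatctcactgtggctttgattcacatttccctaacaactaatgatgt
SEMA5B, 7.20 kb, chr3:123021348-123021468: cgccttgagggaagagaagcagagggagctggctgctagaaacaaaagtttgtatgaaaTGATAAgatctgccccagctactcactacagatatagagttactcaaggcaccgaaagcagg
SEMA6A, -4.57 kb, chr5:116579328-116579448: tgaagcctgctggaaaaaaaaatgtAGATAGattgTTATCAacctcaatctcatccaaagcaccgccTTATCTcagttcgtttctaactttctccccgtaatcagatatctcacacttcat
SEMA6A, 8.18 kb, chr5:116566581-116566701: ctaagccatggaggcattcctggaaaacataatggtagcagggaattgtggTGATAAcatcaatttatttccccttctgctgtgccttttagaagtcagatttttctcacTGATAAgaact
SEMA6A, 28.7 kb, chr5:116546094-116546214: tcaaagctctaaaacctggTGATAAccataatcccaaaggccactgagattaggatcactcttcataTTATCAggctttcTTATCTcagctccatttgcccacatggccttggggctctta

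The EPHA3, EFNA3, EFNA4, EFNB2, SEMA3E and SEMA5B runs each carried 1 word, the SEMA6A runs carried 3, 2 and 3, and the SEMA4D run carried none. In SEMA5B the word TGATAA began within 2 bases of the centre of a region whose replicate positions were 71.0 bp apart.

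A shared region was found at 20 of the 42 guidance genes, or 47.6% (95% Wilson interval 33.4 to 62.3%). The corresponding share was 33.0% of all protein-coding genes and 42.1% of protein-coding genes of similar length, meaning that the longer gene of the pair exceeded the shorter by at most 25%. The interval held the similar-length share, so a difference from genes of that length was not detectable with 42 genes. Replicate 1 alone placed a position at 25 members, or 59.5% (44.5 to 73.0%), against 50.8% of all protein-coding genes and 59.8% at similar length. Replicate 2 alone placed a position at 27 members, or 64.3% (49.2 to 77.0%), against 40.8% of all protein-coding genes and 50.1% at similar length. In each replicate the interval held the similar-length share, in replicate 2 only just. Members held a mean of 0.833 shared regions, where the mean at similar length was 0.720. The other 22 members were divided into 10 with positions of a single replicate or unmatched positions of both, and 12 with no position in either list. Those 12 made up 28.6% (17.2 to 43.6%), against 36.8% of similar-length genes without a position.

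**Figure D1:**
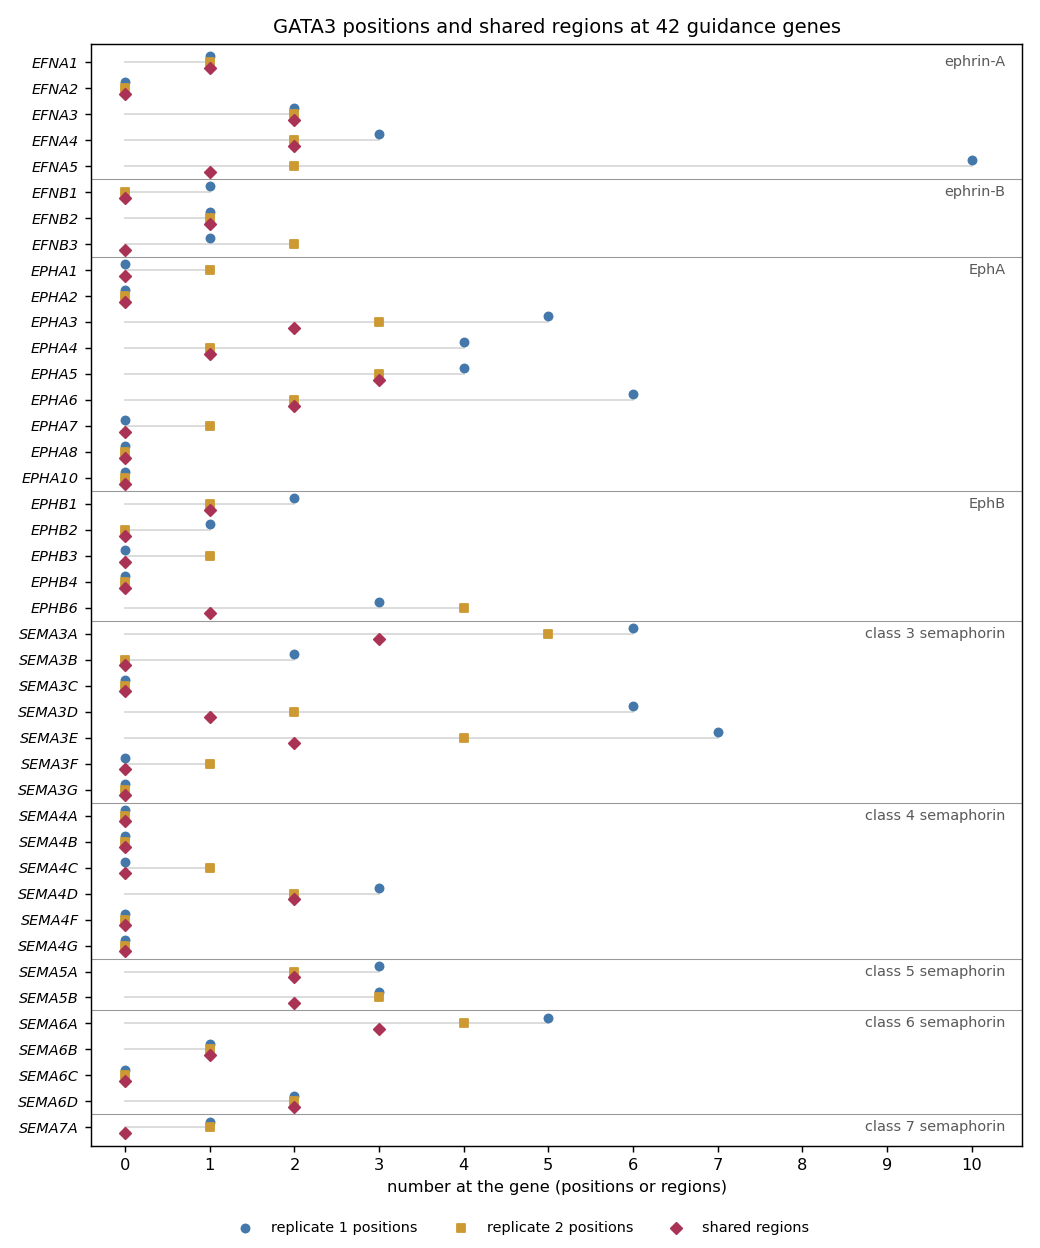
Number of GATA3 positions in replicate 1 (circles) and replicate 2 (squares) and of shared regions (diamonds) at each of the 42 genes, by family; the x axis counts positions or regions. EFNA5 stands out with 10 replicate 1 positions against 2 in replicate 2, and 12 genes have none of either.

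Gene length set apart most of the genes with and without a shared region. Of the 17 members of at least 100 kb, 14 held one, or 82.4% (59.0 to 93.8%), against 64.4% of similar-length genes. Of the 25 shorter members 6 held one, or 24.0% (11.5 to 43.4%), against 26.9% at similar length. All 7 members of 300 kb or more held one (EPHA3, EPHA5, EPHA6, EPHB1, SEMA3A, SEMA5A and SEMA6D), against 79.3% of all protein-coding genes that long. The 3 long members without one were EPHA7, EPHB2 and SEMA3C. Between 10 and 30 kb the order was the opposite. A shared region was found at 1 of 12 members, EPHB6, against 26.8% of all protein-coding genes of those lengths. From 30 to 100 kb it was 2 of 8 members, against 29.4%. Under 10 kb it was 3 of 5 members (23.1 to 88.2%), against 26.4%, which the interval held. These 3 were EFNA1, EFNA3 and EFNA4, neighbours whose calls rested on 2 regions. They are among the 6 shorter members with a shared region. Each of these shares rested on few genes, and the interval for the 12 members ran from 1.49 to 35.4%.

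**Figure D2:**
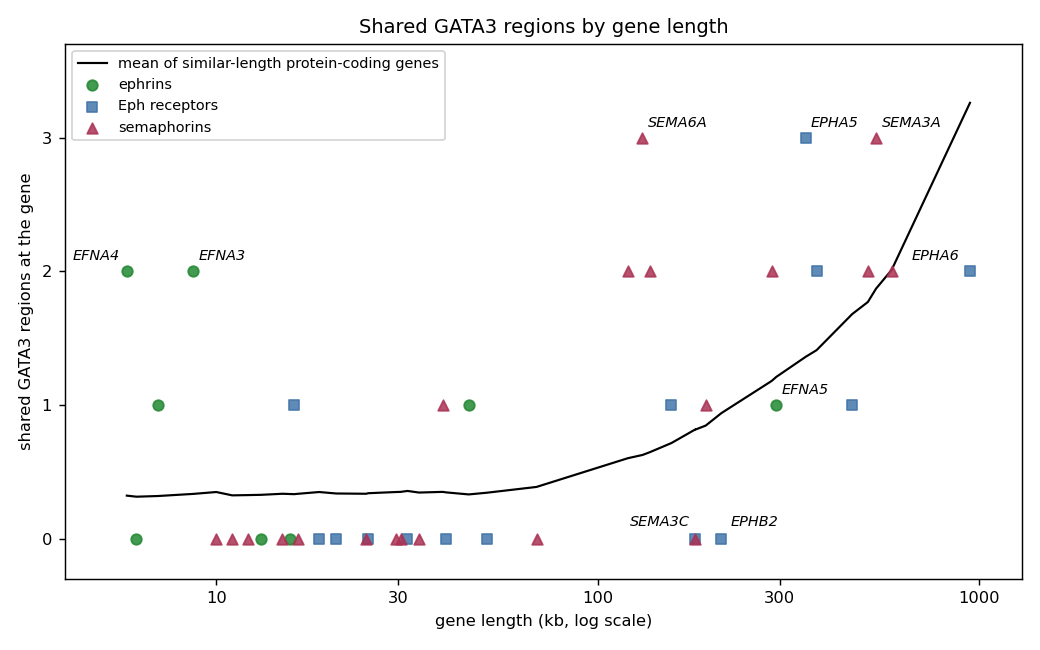
Shared GATA3 regions at each gene against gene length in kb (log scale), for ephrins (circles), Eph receptors (squares) and semaphorins (triangles); the line is the mean of protein-coding genes of similar length. SEMA6A with 3 regions lies above the line, and SEMA3C and EPHB2 with 0 lie below it.

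Close to the 5′ end GATA3 was found at few members, though at a larger share of them than of all protein-coding genes. A shared region lay within 1 kb of the 5′ end of 3 members, EFNA3, EFNA4 and EPHA3, or 7.14% (2.46 to 19.0%), against 2.42% of protein-coding genes. Within 10 kb the count was 8 members, or 19.0% (9.98 to 33.3%), against 8.69%, and EFNB2, SEMA3E, SEMA4D, SEMA5B and SEMA6A joined the first 3. Both the 2.42% and the 8.69% lay below the lower end of their interval, the 2.42% only just. These intervals count the genes as independent although EFNA3 and EFNA4 are neighbours. With replicate 1 alone, 26.2% (15.3 to 41.1%) of members had a position within 10 kb, against 15.9%, which the interval held. With replicate 2 alone it was 23.8% (13.5 to 38.5%), against 11.9%, which lay below the interval. Of the 32 regions, 3 lay within 1 kb of a member's 5′ end, 6 from 1 to 10 kb, 5 from 10 to 50 kb and 18 beyond 50 kb, with a median distance of 60.8 kb. Regions in introns made up 23 of the 32, regions in untranslated exons 2, and 27 were inside the body of a member, a class that the rule favours because it counts the whole gene.

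**Figure D3:**
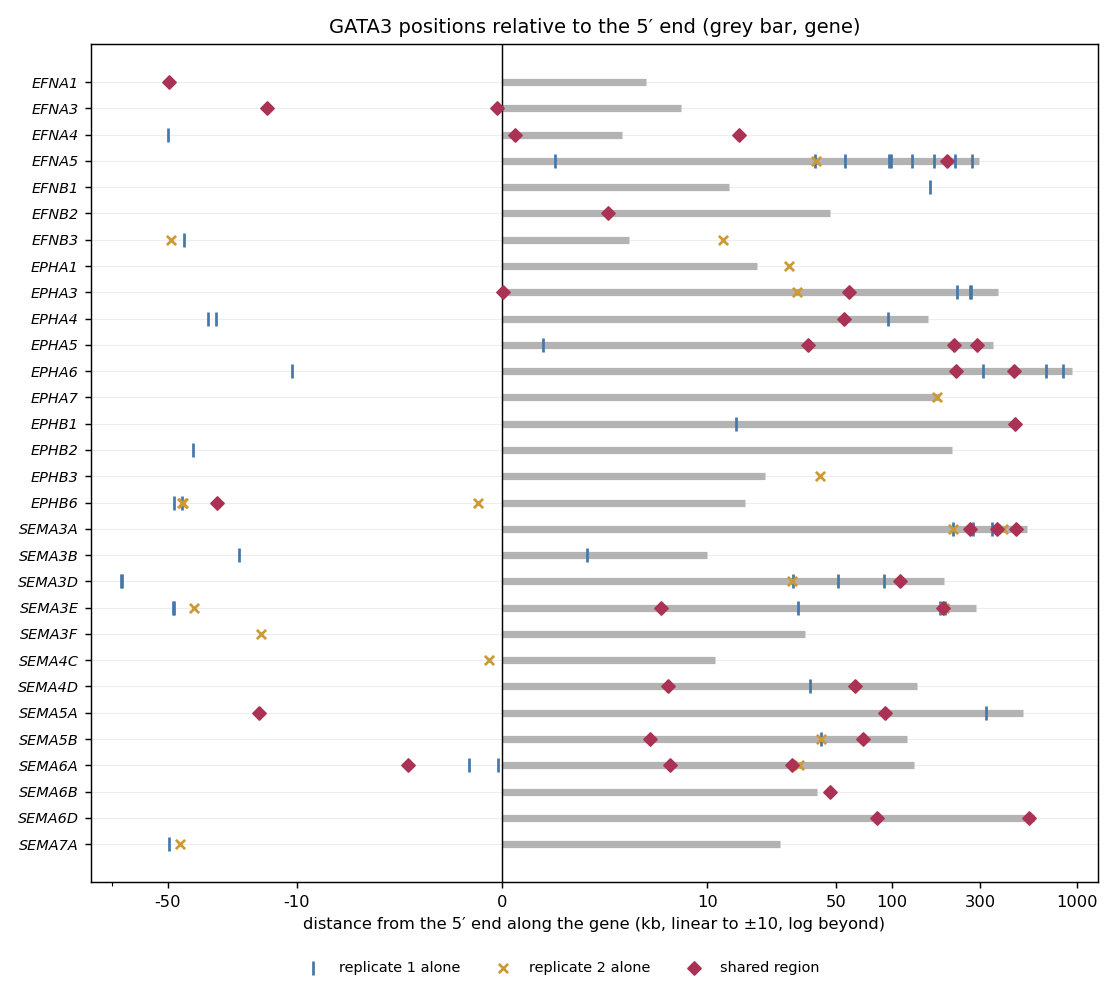
GATA3 positions at the 30 genes that had any, by distance from the gene's 5′ end in kb (linear to 10 kb, logarithmic beyond; negative, upstream); grey bars are gene bodies, diamonds shared regions, ticks positions of replicate 1 alone and crosses of replicate 2 alone. Most shared regions lie inside long genes, and those of EFNA3, EFNA4 and EPHA3 lie within 1 kb of the 5′ end.

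Among the ligands, 4 of the 5 A-type ephrins held a shared region, or 80.0% (37.6 to 96.4%), against 34.2% at similar length. EFNA4, EFNA3 and EFNA1 are neighbours on chromosome 1, and their 3 calls rested on 2 regions. The first region lay at position 155064393 in replicate 1 and 155064315 in replicate 2, in intron 1 of EFNA4 at 0.617 kb. Its replicates were 78.0 bp apart, the widest gap of the 32. The second lay at 155078588 and 155078574, at -0.256 kb from EFNA3 and inside a read-through gene record that joins EFNA4 to EFNA3. EFNA1, a ligand of EPHA2, counted only through this second region at -49.3 kb, close to the 50 kb limit. Without these 3 genes, 17 of 39 members or 43.6% held a shared region, against 43.3% at similar length. Of genes similar in length to EFNA4, 66 of 1313 or 5.03% held at least 2 shared regions, and for EFNA3 94 of 1691 or 5.56%.

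EFNA5, which shapes the topographic map from retina to midbrain, was the member on which the replicates differed most. Replicate 1 gave 10 positions along its 294 kb, from 2.59 to 270 kb after the 5′ end, and replicate 2 gave 2. The single shared region was at 107472852 and 107472834 on chromosome 5, 198 kb into intron 1. The second replicate 2 position, at 107632331, was 221 bp from the nearest of replicate 1. EFNA5 was singled out after its values were seen. Of the 58 protein-coding genes with at least 10 replicate 1 positions, it was the 1 gene with 2 or fewer in replicate 2, where the median of the 58 was 8. The lists together had 1.44 positions of replicate 1 for each of replicate 2.

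EFNB2, the B-type ephrin that marks arteries and binds EPHB4, held 1 shared region in intron 1 at 5.18 kb. Its replicate positions, 106530485 and 106530488 on chromosome 13, were 3 bp apart, the closest of all member regions. EFNB1 had 1 position of replicate 1, at 161 kb downstream of its 5′ end, which counted through the peak list's gene name. EFNB3 had 1 position of replicate 1 at -40.8 kb and 2 of replicate 2 at -48.0 and 12.1 kb, none within 100 bp of another. The window around the EFNB3 replicate 1 position held 26 GATA words, a tandem run, where no shared region at a member held more than 4. EFNA2 had no position.

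Among the EphA receptors, 4 of 9 held a shared region, or 44.4% (18.9 to 73.3%), against 50.7% at similar length. EPHA3, a receptor studied in axon guidance and in cardiac cushion formation, carried the region closest to a 5′ end. It was at 89107656 in replicate 1 and 89107650 in replicate 2, in untranslated exon 1 at 0.0320 kb. The region fell inside the RefSeq promoter window of EPHA3 (GRCh38.p14, 250 bases before to 50 after the start), and the AGATAA word printed above, read on the minus strand, lay upstream of the start. A second EPHA3 region was in intron 2 at 58.3 kb, at 89165979 and 89165947. In all EPHA3 had 5 positions of replicate 1 and 3 of replicate 2.

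EPHA5, a receptor of the developing nervous system, held 3 shared regions in introns 2, 5 and 8, at 34.9, 217 and 289 kb. All 3 replicate 2 positions at EPHA5 were matched, as were 3 of the 4 of replicate 1, and the gaps were 13, 26 and 5 bp. EPHA5, SEMA3A and SEMA6A had the most shared regions of the members, and for that reason the 3 EPHA5 windows are printed.
EPHA5, 34.9 kb, chr4:65635504-65635624: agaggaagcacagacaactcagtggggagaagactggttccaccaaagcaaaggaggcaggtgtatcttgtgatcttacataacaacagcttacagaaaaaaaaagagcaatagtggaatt
EPHA5, 217 kb, chr4:65453499-65453619: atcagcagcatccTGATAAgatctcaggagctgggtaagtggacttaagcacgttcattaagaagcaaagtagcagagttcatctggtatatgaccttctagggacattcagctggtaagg
EPHA5, 289 kb, chr4:65381717-65381837: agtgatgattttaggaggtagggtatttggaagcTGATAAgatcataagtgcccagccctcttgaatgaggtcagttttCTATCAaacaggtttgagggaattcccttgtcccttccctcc
The region at 34.9 kb had no word in its 200 bp window, that at 217 kb had 1 and that at 289 kb had 2, on opposite strands. Of genes similar in length to EPHA5, 89 of 494 or 18.0% held at least 3 shared regions.

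EPHA4 is unusual among Eph receptors in binding ephrins of both types. It held 1 region in intron 3 at 55.1 kb, with positions 221519100 and 221519064 on chromosome 2 and 4 GATA words, the most of any shared region at a member. EPHA6, the longest member at 947 kb, held 2 regions in introns 3 and 5 at 223 and 455 kb, against a mean of 3.26 at its length. At least 2 regions were found at 75 of the 97 genes of similar length, or 77.3%. EPHA7 had 1 position, of replicate 2 at 176 kb, near its 3′ end, and EPHA1 had 1 of replicate 2 at 27.7 kb, which was nearer to the 5′ end of another gene. EPHA2, EPHA8 and EPHA10, the last a receptor without kinase activity, had none.

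Among the EphB receptors, 2 of 5 held a shared region, or 40.0% (11.8 to 76.9%), against 43.6% at similar length. EPHB1, an axon guidance receptor of the optic chiasm, had 1 in its last exon, the untranslated part of exon 16 at 465 kb, at 135260144 and 135260195 on chromosome 3. EPHB6, a receptor without kinase activity, had 1 upstream at -27.0 kb, at 142828051 and 142828025 on chromosome 7. The peak list named that region for TRBV30 and not for EPHB6. Around EPHB6 the replicates came close without meeting at -41.8 kb, where a replicate 1 position lay between replicate 2 positions 228 and 272 bp away. A replicate 2 position at -1.19 kb was the nearest to the 5′ end of EPHB6 and the only one that the peak list named for it. EPHB2, 211 kb long, had 1 position of replicate 1 at -36.5 kb and EPHB3 had 1 of replicate 2 at 40.6 kb. EPHB4, the venous receptor of EFNB2, had none.

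**Figure D4:**
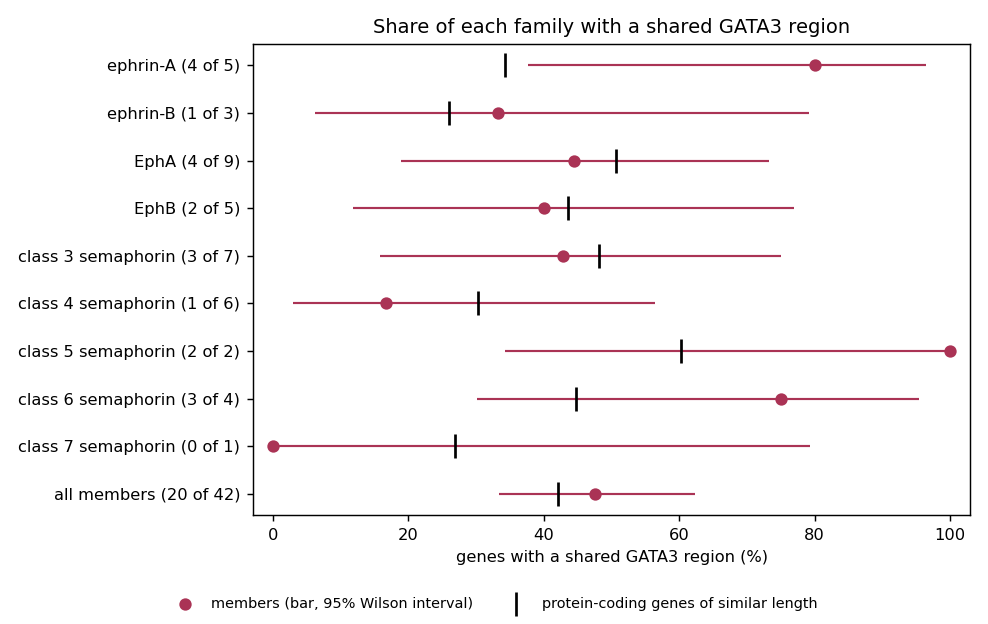
Share of the genes of each family with a shared GATA3 region in percent (points, with 95% Wilson intervals), beside the share of protein-coding genes of similar length (vertical ticks). The interval held the tick in every family except the A-type ephrins, where 3 of the 4 genes share 2 regions.

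The secreted class 3 semaphorins held a shared region at 3 of 7 genes, or 42.9% (15.8 to 75%), against 48.1% at similar length. All 3, SEMA3E, SEMA3A and SEMA3D, are neighbours on chromosome 7. The stretch they span, 1.82 Mb from 83363238 to 85187056, contained no other protein-coding gene and held 18 positions of replicate 1, 14 of replicate 2 and 7 shared regions. That came to 3.84 shared regions per Mb, where all chromosomes without gaps averaged 3.11. SEMA3C, on the same chromosome and a cue for neural crest cells of the cardiac outflow tract, had no position in either list over its 180 kb. The same was true of 225 of 1093 similar-length genes, or 20.6%.

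SEMA3A, which repels axons through NRP1 and A-type plexins, held 3 regions at 264, 369 and 467 kb of its gene record. The record begins far upstream of the canonical transcript, from whose start the 3 regions lay at -33.9, 70.6 and 169 kb. The windows are printed because SEMA3A was among the members with the most shared regions, and they differed in GATA words.
SEMA3A, 264 kb, chr7:84228659-84228779: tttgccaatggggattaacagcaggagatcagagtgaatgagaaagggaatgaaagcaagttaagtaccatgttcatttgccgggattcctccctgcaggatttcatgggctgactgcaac
SEMA3A, 369 kb, chr7:84124120-84124240: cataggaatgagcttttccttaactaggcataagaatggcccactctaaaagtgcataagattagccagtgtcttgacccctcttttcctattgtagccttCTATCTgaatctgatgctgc
SEMA3A, 467 kb, chr7:84025590-84025710: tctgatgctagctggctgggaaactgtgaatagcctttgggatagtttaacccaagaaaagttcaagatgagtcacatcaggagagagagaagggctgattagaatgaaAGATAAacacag
The run at 264 kb had no word, and its 200 bp window had none either. The other windows of 200 bp held 2 words and 1 word. A further pair of replicate positions, at 84277671 and 84277834, was 163 bp apart and so was not joined.

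SEMA3E signals through PLXND1 without a neuropilin. It had 7 positions of replicate 1 and 4 of replicate 2, of which 2 were shared, at 7.76 and 189 kb. The first, at 83641389 and 83641376, lay in intron 1 of the canonical transcript and at the edge of a RefSeq promoter window of an internal start, from 83641382 to 83641681, which contained 3 GATA words. SEMA3D had 6 positions of replicate 1 and 2 of replicate 2, with 1 shared region in intron 5 at 111 kb. Of its replicate 1 positions, those at -88.2 and -89.3 kb counted through the peak list's gene name. Of the other class 3 genes, SEMA3B had 2 positions of replicate 1 at -20.5 and 4.16 kb, SEMA3F had 1 of replicate 2 at -15.6 kb and SEMA3G had none.

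The membrane-bound semaphorins held a shared region at 6 of 13 genes, or 46.2% (23.2 to 70.9%), against 39.1% at similar length. In class 4 this was 1 of 6, or 16.7% (3.01 to 56.4%), against 30.3% at similar length. That gene was SEMA4D, a ligand of PLXNB1 also known from lymphocytes as CD100. Its regions lay in introns 1 and 2 at 8.07 and 63.4 kb, the first with no GATA word and the second with 2. SEMA4C had a single position, of replicate 2, at -0.632 kb. SEMA4A, SEMA4B, SEMA4F and SEMA4G had none, so that 4 of 6 class 4 genes lacked a position, where 47.2% of genes similar to them in length did. In class 5, whose members carry thrombospondin repeats, both genes were called, against 60.2% at similar length, and both are at least 100 kb long. SEMA5A had regions at -16.1 and 91.8 kb and SEMA5B at 7.20 and 70.0 kb. Another pair of SEMA5B positions, near 41.4 kb, was 141 bp apart.

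SEMA6A, a ligand of A-type plexins in neural circuits, had the densest group of regions. It held 5 positions of replicate 1 and 4 of replicate 2, with shared regions at -4.57, 8.18 and 28.7 kb. They were centred at 116579388, 116566641.5 and 116546154 on chromosome 5, with gaps of 42, 33 and 8 bp between replicates. Each of the 3 windows of 200 bp contained 3 GATA words, and the members of the group were 12.7 and 20.5 kb apart, where the median distance to the next shared region was 102 kb for member regions and 86.1 kb for all. Replicate 1 added unmatched positions at -0.194 and -1.61 kb. Of genes similar in length, 64 of 1491 or 4.29% held at least 3 shared regions. This was the lowest such share among the 42 members, so it is not the share for a gene picked beforehand.

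SEMA6D, which acts in heart development, had regions at 82.6 and 552 kb of its gene record, the second in intron 1 of the canonical transcript. It was the only member of 300 kb or more with all positions of both replicates matched, 2 of 2 in each. SEMA6B was called through a region 46.3 kb from its 5′ end and beyond its 3′ end, which was -0.270 kb from PLIN5, a gene of lipid droplets. When a region had to lie inside the gene or nearest to its own 5′ end, SEMA6B and EFNA1 were lost and 18 members remained. Only protein-coding genes were compared for the nearest 5′ end. SEMA6C had no position, and SEMA7A, a semaphorin with a lipid anchor, had 1 of each replicate at -49.0 and -43.1 kb.

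The GATA words were about as common under the member regions as elsewhere. At least 1 GATA word (A or T, then GATA, then A or G, on either strand) was found in the 200 bp window of 27 of 32 member regions, or 84.4% (68.2 to 93.1%), and in 82.0% of all shared regions. The regions without a word were those of EPHA5 at 34.9 kb, SEMA3A at 264 kb, SEMA3E at 189 kb, SEMA4D at 8.07 kb and SEMA6B. In a 100 bp window the shares were 81.2% and 71.4%. At least 2 words were found in 31.2% of member regions and 34.7% of all. The word nearest to the centre lay a median of 18.0 bp away in both. The member windows held 43 words, of which AGATAA made up 37.2%, against 48.3% of the words in all shared regions. TGATAG, the rarest, made up 14.0% against 7.46%, or 6 words.

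The GATA words read backwards, such as AATAGA, which can overlap a GATA word, served as a comparison of base composition, and like the next words they were searched on both strands of the 200 bp windows. They were found in 46.9% (30.9 to 63.6%) of member regions against 32.7% of all. GTCTG, a SMAD half-site, was found in 34.4% of member regions and 36.2% of all, and GGAATG, a TEAD word, in 18.8% and 18.9%. CACCTG, an E-box, was found in 15.6% and 13.6%. The SOX word ACAAAGG, or its variant with T as the fifth letter, was found in 9.38% and 13.3%, and the AP-1 word TGACTCA, or its variant with G in the middle, in 6.25% and 5.66%. ATGCAAAT, the octamer, and GCCNNNGGC, an AP-2 word, were in 1 member region each, or 3.12%, against 5.10% and 4.21%. GGGCGG, a GC box, was in 0 of 32 (0 to 10.7%) against 5.31%. For each motif here the share of all regions lay within the members' Wilson interval. Of the 62 RefSeq promoter windows matched to 37 members, 11 or 17.7% held a GATA word, against 25% of 35116 promoters. Some windows of the same gene overlap almost wholly, as at EPHB2, so they are not independent, and no interval is given. No promoter entry was matched for EFNB3, EPHA10, SEMA3A, SEMA6A and SEMA6B.

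The shares of positions at members that were matched between replicates lay below those of all positions, by less than the counting error. Of 80 replicate 1 positions at members 32 were found in replicate 2, or 40.0% (30 to 51.0%), against 49.6% of all. Of 52 replicate 2 positions 32 were found in replicate 1, or 61.5% (48.0 to 73.5%), against 71.5% of all. With EFNA5 left out the shares were 44.3% of 70 and 62.0% of 50. Matched positions at members were a median of 33.5 bp apart, against 23 bp for all shared regions, and 34.4% (20.4 to 51.7%) were within 25 bp, against 53.6%, which lay outside the interval. Of the positions found in 1 replicate alone, 34 of 48 in replicate 1 and 15 of 20 in replicate 2 had a GATA word, or 70.8% and 75%, against 73.1% and 67.2% over all such positions. Counted by place alone, without gene names, the member loci held 77 positions of replicate 1 and 52 of replicate 2. Per Mb these were 8.66 and 5.85, where the chromosomes without gaps averaged 6.28 and 4.35. For shared regions the values were closer, at 3.60 and 3.11 per Mb. The chromosome averages include stretches without genes, and loci of similar-length genes were not compared per Mb.

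The 32 other guidance genes gave a similar share: 16 held a shared region, or 50.0% (33.6 to 66.4%), as did 50.1% of genes similar to them in length. The plexins and neuropilins, the receptors of the semaphorins, held one at 4 of 11 genes, or 36.4%, against 40.5% at similar length. Netrins and their receptors held one at 7 of 11, against 56.2%, slits and their Robo receptors at 3 of 7, against 65.1%, and repulsive guidance molecules at 2 of 3, against 27.4%.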

How the data were processed

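Per the methods of the study and the submitters' processing notes, the authors used cutadapt for adapters, Bowtie for alignment to hg38, Picard for duplicates and MACS2 for peaks. Reads with several places and blacklisted regions were left out, and each replicate was called on its own with its input as the control. Each line of the deposited lists holds 1 position and a gene name. They hold 18538 distinct positions in replicate 1 and 12865 in replicate 2. These counts differ from the peak counts that the study reports for its replicates, and the reason is not given in the sources used here. How a peak was reduced to a position and whether bases count from 0 or 1 are not given in the sources used here, so positions are printed as deposited and may be off by a base.

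Positions within 100 bp between replicates were linked and centred on their mean. A locus was the gene body of GENCODE release 44, 50 kb on both sides of its 5′ end, and positions carrying the gene's name. Genes of similar length were protein-coding non-members up to 25% longer or shorter, as a ratio. GATA words were searched on both strands of 200 bp windows. Intervals are 95% Wilson intervals, cover counting error only and treat neighbouring genes as independent, and no test was run over the members. Promoter windows came from RefSeq (GRCh38.p14). All members were named, shared regions were given for each, and sequence was printed for regions within 10 kb of a 5′ end and for the members with most regions, without untranslated exons. The members, lists and rules were chosen with earlier results of these data known. The joining, locus, motif and length steps were tested on simulated data. Python 3.11.15, numpy 2.4.6, scipy 1.17.1, pysam 0.24.0 and matplotlib 3.10.9 were used. The alternatives were other distances, gene windows, length ratios and words, and each replicate alone.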

Additional observations from a re-analysis of the deposited data

How the results depend on the processing

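The count of 20 members with a shared region stayed within a factor of 1.5 when positions had to lie within 50, 250 or 500 bp (18, 20 and 20 members, with EPHB1 and SEMA5A lost at 50 bp), or 42.9, 47.6 and 47.6% against 36.9, 44.3 and 44.7% at similar length. With a 5′ window of 10 or 100 kb it was 17 and 26 members, or 40.5 and 61.9% against 32.6 and 54.2%. With each replicate alone it ranged from 25 to 27 members (59.5 and 64.3%, against 59.8 and 50.1%), and the number of regions or positions at members ranged from 52 to 80. With the gene body not counted, 16 members (38.1%, against 31.0%) and 20 regions remained, and with the peak list's gene names alone 10 members (23.8%, against 14.8%) and 13 regions. The similar-length share was 43.3% instead of 42.1% with EFNA4, EFNA3 and EFNA1 left out, an alternative chosen after seeing the data, as were those leaving out EFNA5 and requiring a region in or nearest to the gene. Within 50 bp, 46.2% of replicate 2 positions at members were matched, against 57.9% of all. AGATAA alone was found in 43.8% of member regions, against 51.7% of all. With replicate 2 alone 82.7% of positions at members had any GATA word, against 77.6% of all. With replicate 1 alone it was 76.2%, against 77.4%. Fewer words, smaller gene windows or a shorter joining distance lower such values by construction. What lay behind the values with each replicate alone was not tested, nor were other causes. No paired analysis was possible because the input samples gave no list analysed here and no test compared groups. The depth of each replicate is not given in the sources used here, and a gene without a position may hold a site that was not detectable.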

Other observations

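Among the receptors of the semaphorins, the genes with a shared region were both neuropilins and 2 of the 9 plexin genes. Together these were 4 of 11, or 36.4%, against 40.5% at similar length. NRP2, a receptor of SEMA3F, held 3 shared regions, the nearest at 5.16 kb from its 5′ end, and NRP1, a receptor of SEMA3A, held 1 at 143 kb. PLXNA4 held 4 over its 525 kb, the nearest at 7.10 kb, and PLXNC1, the receptor of SEMA7A, held 2. Of genes similar in length, 41.8% held a shared region for NRP2, 49.5% for NRP1, 79.1% for PLXNA4 and 49.4% for PLXNC1. PLXNA2, 222 kb long, had 1 unmatched position in each replicate and no shared region, where 61.1% of similar-length genes held one, and PLXNB1 had 1 position of replicate 1. PLXND1, the receptor of SEMA3E, had no position in either replicate, nor had PLXNA1, PLXNA3, PLXNB2 and PLXNB3.

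HJV, a repulsive guidance family member and BMP co-receptor, had 3 positions in each replicate and 3 shared regions around a gene of 19.3 kb, the nearest at 0.910 kb. NTN1, the gene of the axon attractant netrin-1, held 1 at -4.17 kb. SLIT1 and SLIT2 had no position over 188 and 369 kb, while SLIT3 held 4 shared regions over 639 kb. ROBO1 and ROBO2 held 5 each over 1171 and 1743 kb. The share of similar-length genes with at least 1 shared region was 27.2% for HJV, 60.9% for NTN1, 55.2% for SLIT1 and 72.6% for SLIT2. It was 83.9% for SLIT3, 96.8% for ROBO1 and 95.2% for ROBO2.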
